A study of Homo sapiens with 12 samples.

Results

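Histone deacetylases remove acetyl groups from lysines of histones and other proteins. The family members described here are 10 genes of the zinc-dependent classes: HDAC1, HDAC2, HDAC3 and HDAC8 of class I, HDAC4, HDAC5, HDAC7 and HDAC9 of class IIa, HDAC6 of class IIb, and HDAC11, the only member of class IV. They were taken as a listed gene family, and the family was chosen by the log2 values of HDAC9, which is among the genes that differ most between hairpins against H2AZ2 and hairpins against H2AZ1 in these same arrays. Of the 18417 genes named on the array, 10 are therefore described, each through the brightest probe set that carries a single gene symbol. Each of the 10 genes had only 1 such probe set. HDAC10, the other class IIb gene, was also measured but is not among the listed genes, and its values are given once for comparison.

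The arrays measured total RNA of SKmel147, an established human melanoma cell line, after lentiviral short hairpin RNAs, which the sample titles call siRNA. There were 4 arrays with hairpins against H2AZ2 (2 each of sh_37 and sh_38), 4 with hairpins against H2AZ1 (2 each of sh_83 and sh_84), and 4 with control hairpins (2 each of scrambled and luciferase). H2AZ1 and H2AZ2 encode the isoforms H2A.Z.1 and H2A.Z.2 of a histone variant, and the title of the series names proliferation and drug sensitivity as its interest. The control cells carried a lentiviral hairpin too, so every group shares infection and hairpin expression, and all groups come from a single cell line. Replicate 2 of sh_84 has another hairpin name in its RNAi label than in its title, and the title was followed. The labels do not say that replicates came from separate cultures, so the error behind each p-value is that among the deposited arrays and could be technical.

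All values are log2 expression as deposited, so a difference of 1 is a doubling. H2AZ2 was at 9.94 and 9.83 with sh_37 and at 10.43 and 10.35 with sh_38, against 10.94 to 11.05 in the control arrays. With the H2AZ2 hairpins, H2AZ1 was at 11.97 to 12.11, just below every control array. Neither H2AZ2 hairpin passed for it (limma adjusted p = 0.190 with sh_37 and 0.396 with sh_38). H2AZ1 was at 9.79 and 9.94 with sh_83, and 12.10 and 12.15 in the arrays labelled sh_84, against 12.12 to 12.38 in the control arrays. The arrays labelled sh_84 thus overlapped the controls in the gene that the hairpin targets, and values of sh_83 alone are given beside those of both H2AZ1 hairpins. Among melanocyte lineage genes, SOX10 and MITF stood at the 90.2 and 59.5 percentiles of mean level over all genes, whereas TYR, MLANA, S100B and PMEL stood between the 7.31 and 16.7 percentiles. Probe sets differ in brightness and no detection call was analysed here, so these positions do not show presence or absence. The RNA came from whole cultures, in which fewer cells of a type and less RNA per cell cannot be told apart.

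The class I enzymes HDAC1, HDAC2 and HDAC3 are mostly nuclear and work as the catalytic subunits of large corepressor complexes, such as NuRD, SIN3, CoREST and the NCOR complex. Class IIa enzymes have little deacetylase activity of their own, bind MEF2 transcription factors through their N-terminal part, and leave the nucleus when kinases phosphorylate them and 14-3-3 proteins bind. HDAC9 also gives rise to a shorter form, known as MITR or HDRP, that lacks the catalytic domain and still binds MEF2. Which of these forms the HDAC9 probe set reads was not examined here.

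HDAC9 lies on chromosome 7, and RefSeq gives 5 promoter windows for it on GRCh38.p14, each from 250 bases before to 50 bases after a transcript start. The most upstream window and one of the group of starts far downstream are shown, because the array values do not say which start the HDAC9 signal comes from and the windows differ in composition. The HDAC3 window is shown beside them, as HDAC3 was the family member, 1 of the 9 other than HDAC9, that passed a test with a single hairpin. With that hairpin, sh_37, 12.9% of all genes were called. Capitals mark matches, on either strand, to 6 searched motifs: MEF2 (CTA and TAG with 4 bases of any kind between them), E2F (TTTCCCGC or TTTGGCGC), AP-1 (TGANTCA), CRE (TGACGTCA), Sp1 (GGGCGG) and the M-box (TCATGTG).
HDAC9 upstream start, chr7:18086575-18086874, plus strand: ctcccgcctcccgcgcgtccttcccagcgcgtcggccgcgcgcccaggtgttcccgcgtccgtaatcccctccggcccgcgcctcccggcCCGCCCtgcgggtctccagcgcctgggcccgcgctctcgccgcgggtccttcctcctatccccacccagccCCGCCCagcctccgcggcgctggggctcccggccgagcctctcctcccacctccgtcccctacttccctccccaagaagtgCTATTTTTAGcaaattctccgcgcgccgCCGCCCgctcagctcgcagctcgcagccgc
HDAC9 downstream start, chr7:18495499-18495798, plus strand: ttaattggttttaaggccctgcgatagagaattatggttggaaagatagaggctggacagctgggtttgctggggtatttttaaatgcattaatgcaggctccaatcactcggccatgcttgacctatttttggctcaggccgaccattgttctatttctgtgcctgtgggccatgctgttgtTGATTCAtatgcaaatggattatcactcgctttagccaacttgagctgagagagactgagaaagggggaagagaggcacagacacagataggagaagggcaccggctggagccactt
HDAC3, chr5:141636800-141637099, minus strand: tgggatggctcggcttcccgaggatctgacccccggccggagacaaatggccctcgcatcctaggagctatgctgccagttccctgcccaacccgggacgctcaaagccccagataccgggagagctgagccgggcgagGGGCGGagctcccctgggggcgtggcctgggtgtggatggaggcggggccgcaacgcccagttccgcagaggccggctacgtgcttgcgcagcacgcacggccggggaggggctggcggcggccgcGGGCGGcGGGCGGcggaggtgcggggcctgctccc
The upstream HDAC9 window was 75.0% G or C with 41 CpG dinucleotides, and the downstream window 47.3% with 5. Over all 35116 RefSeq windows of 300 bases the medians were 58.7% and 14. The upstream HDAC9 window held 1 MEF2 match, a motif found in 2.73% of all windows, and 3 Sp1 matches, a motif found in 44.95%. The downstream window shown held 1 AP-1 match, a motif found in 7.71% of all windows. The HDAC9 window that starts at 18495460 overlaps it and holds the same match. The HDAC9 windows that start at 18496012 and 18509020 held no match to any searched motif. The HDAC3 window was 74.0% G or C with 31 CpG dinucleotides and held 3 Sp1 matches. No 2 of the matches shown overlap. Windows were found for 9 of the 10 genes, HDAC5 being the exception, 19 windows in all, and none of the 19 held an E2F, CRE or M-box match. These are descriptions of letters in short windows and say nothing of binding.

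HDAC9 was the member whose level varied most. It was at 8.81 and 8.91 with sh_37 and at 8.71 and 8.51 with sh_38. The sh_83 arrays read 7.82 and 7.88 and the arrays labelled sh_84 read 7.92 and 7.82, against 8.15 and 7.99 with scrambled and 8.17 and 8.20 with luciferase. All 4 arrays with H2AZ2 hairpins lay above all controls, all 4 with H2AZ1 hairpins lay below them, and no array of one target overlapped another. Of all genes 4.14% lay wholly above the controls with H2AZ2 hairpins, 2.58% lay wholly below them with H2AZ1 hairpins, and 13.3% did not overlap between H2AZ2 and H2AZ1 hairpins in either direction. The mean was 8.73 ± 0.17 with H2AZ2 hairpins and 7.86 ± 0.05 with H2AZ1 hairpins, against 8.13 ± 0.09 with control hairpins (SD, n = 4 each). The SD of HDAC9 over the 12 arrays was 0.40, whereas the other 9 members had SDs of 0.07 for HDAC8 to 0.17 for HDAC11. HDAC9 was chosen for its difference between H2AZ2 and H2AZ1 hairpins in these arrays. That choice favours a large SD and a lack of overlap, so both are descriptions.

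**Figure D1:**
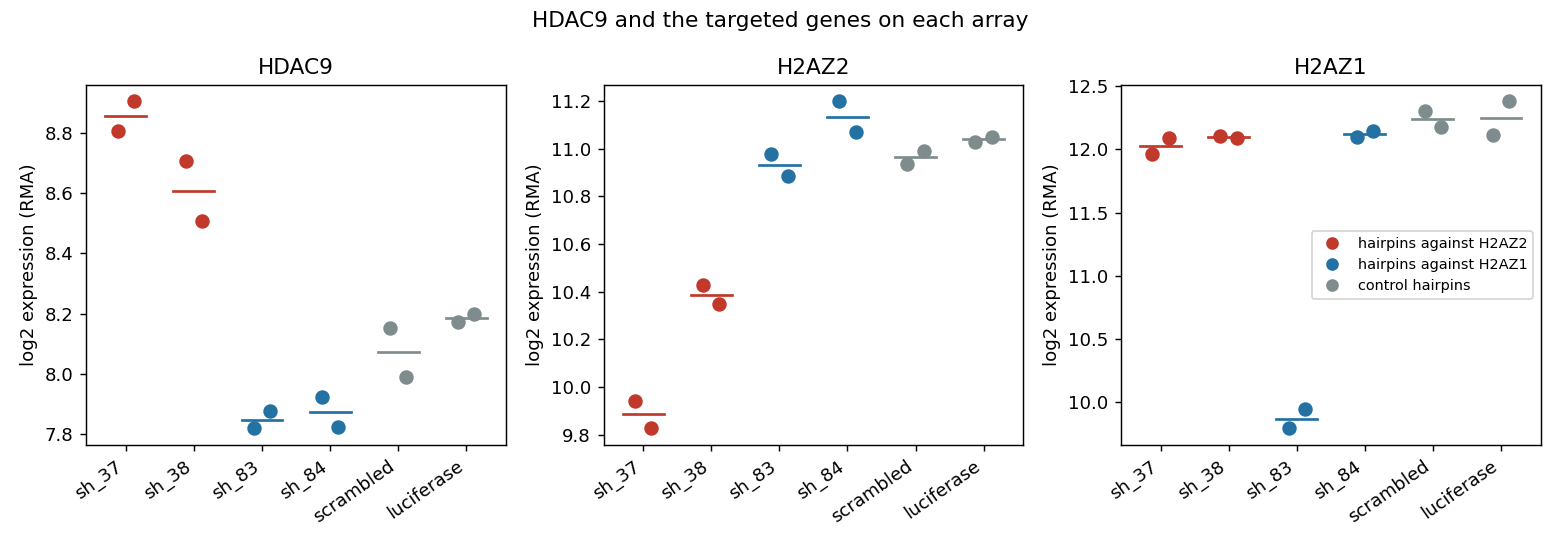
Log2 expression of HDAC9, H2AZ2 and H2AZ1 on each array (points, 2 per hairpin) with the mean of each hairpin (lines), by hairpin on the x axis. HDAC9 sits between 8.51 and 8.91 with H2AZ2 hairpins and between 7.82 and 7.92 with H2AZ1 hairpins, against 7.99 to 8.20 in the controls. H2AZ1 is far below the controls only with sh_83, and with H2AZ2 hairpins it lies just below them, at 11.97 to 12.11.

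The choice of HDAC9 rested on the difference between H2AZ2 and H2AZ1 hairpins, so its differences between targets are descriptions and carry no test. HDAC9 was higher by 0.87 (SE 0.09) with H2AZ2 than with H2AZ1 hairpins, a 1.83-fold level. Relative to the controls it was higher by 0.60 with H2AZ2 hairpins (SE 0.09, 1.52-fold) and lower with H2AZ1 hairpins, at -0.27 (SE 0.09, 83.0% of the control level). Against sh_83 alone, the hairpin with less H2AZ1 transcript, the H2AZ2 hairpins stood 0.89 higher (SE 0.09). Among all 18417 genes the H2AZ2 against H2AZ1 difference of HDAC9 ranked 86 by size and 62 among positive differences. Genes with all 4 arrays of one target above and all 4 of the other below the controls numbered 37 of 18417, or 0.201%, and HDAC9 was among them.

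By hairpin, HDAC9 stood highest with sh_37 (mean 8.86), then sh_38 (8.61), luciferase (8.19), scrambled (8.07), the arrays labelled sh_84 (7.87) and sh_83 (7.85). Against the mean of both controls this was a difference of 0.73 with sh_37 and 0.48 with sh_38, and of -0.28 with sh_83 and -0.26 with sh_84 as labelled (SE 0.09 each). Against scrambled alone the differences were 0.79, 0.54, -0.22 and -0.20 in the same order, and against luciferase alone 0.67, 0.42, -0.34 and -0.31 (SE 0.10 each). The direction against either control follows from the lack of overlap with the control arrays given above, so it is no further support.

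Contrasts between hairpins of the same target were not used in the choice and could be tested. HDAC9 was at a difference of 0.25 between sh_37 and sh_38 (95% interval 0.03 to 0.47, limma adjusted p = 0.215), which did not pass. In this comparison 6.27% of all genes were called, and H2AZ2 itself was lower with sh_37 than with sh_38 by a difference of -0.50 (SE 0.09, limma adjusted p = 0.00763). Between sh_83 and the arrays labelled sh_84 HDAC9 differed by -0.03 (95% interval -0.25 to 0.20, limma adjusted p = 0.986), where H2AZ1 differed by -2.25 (SE 0.11, limma adjusted p = 1.02e-05). Of all genes 1.19% were called there. Against the controls HDAC9 stood at -0.28 with sh_83 and at -0.26 in the arrays labelled sh_84. The interval between these hairpins reaches nearly as far as those differences, so equal size is not shown. The part of the H2AZ1 level in the HDAC9 values was not tested. Between the controls, scrambled minus luciferase, HDAC9 differed by -0.11 (95% interval -0.33 to 0.11, limma adjusted p = 0.749). No gene passed between the controls with limma, and 7.51% had an unadjusted p under 0.05.

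The mean level of the 6 fibroblast markers was 6.67 to 6.96 with H2AZ2 hairpins and 6.34 to 6.64 with H2AZ1 hairpins (6.62 and 6.64 with sh_83), against 6.41 to 6.59 with control hairpins. The arrays with H2AZ2 hairpins lay above the controls, as for HDAC9, and those with sh_83 did too, unlike HDAC9. None of the 6 was called with H2AZ2 hairpins against the controls, COL1A1 standing at a difference of 0.50 (limma adjusted p = 0.0561) and LUM at 0.82 (limma adjusted p = 0.182). LUM, the proteoglycan lumican, was picked after its values were seen, and in the fit by hairpin it rose with sh_37 (1.27, limma adjusted p = 1.18e-05) and sh_38 (0.38, limma adjusted p = 0.0374) and fell in the arrays labelled sh_84 (-0.85, limma adjusted p = 0.00396), with sh_83 at 0.22 (limma adjusted p = 0.409). The controls lay apart for this gene, at 8.46 and 8.41 with scrambled and 9.14 and 9.25 with luciferase, and the sh_38 arrays, at 9.22 and 9.17, overlapped luciferase. COL1A1 also rose with sh_37 (0.69, limma adjusted p = 0.00401). Of 9 melanocyte and 5 leukocyte markers measured none passed over both H2AZ2 hairpins. In the fit by hairpin SOX10 (-0.30, limma adjusted p = 0.04997) and the leukocyte markers CD68 (-0.58, limma adjusted p = 0.00152) and LYZ (-0.82, limma adjusted p = 0.00476) fell with sh_37. SOX10 was at 10.41 and 10.24 with sh_37 and at 10.35 and 10.23 with sh_83, against 10.51 to 10.80 in the controls. It was not called with sh_83, though all 4 arrays with H2AZ1 hairpins lay below the controls. None of 5 keratinocyte and 5 endothelial markers passed with any hairpin. With sh_37 the calls were 2 of 6 fibroblast, 1 of 9 melanocyte and 2 of 5 leukocyte markers, where 12.9% of all genes were called. Of all genes 4.60% were called with sh_38 and 0.353% in the arrays labelled sh_84, where LUM was the only marker called. The part of these markers in the HDAC9 values was not tested.

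**Figure D2:**
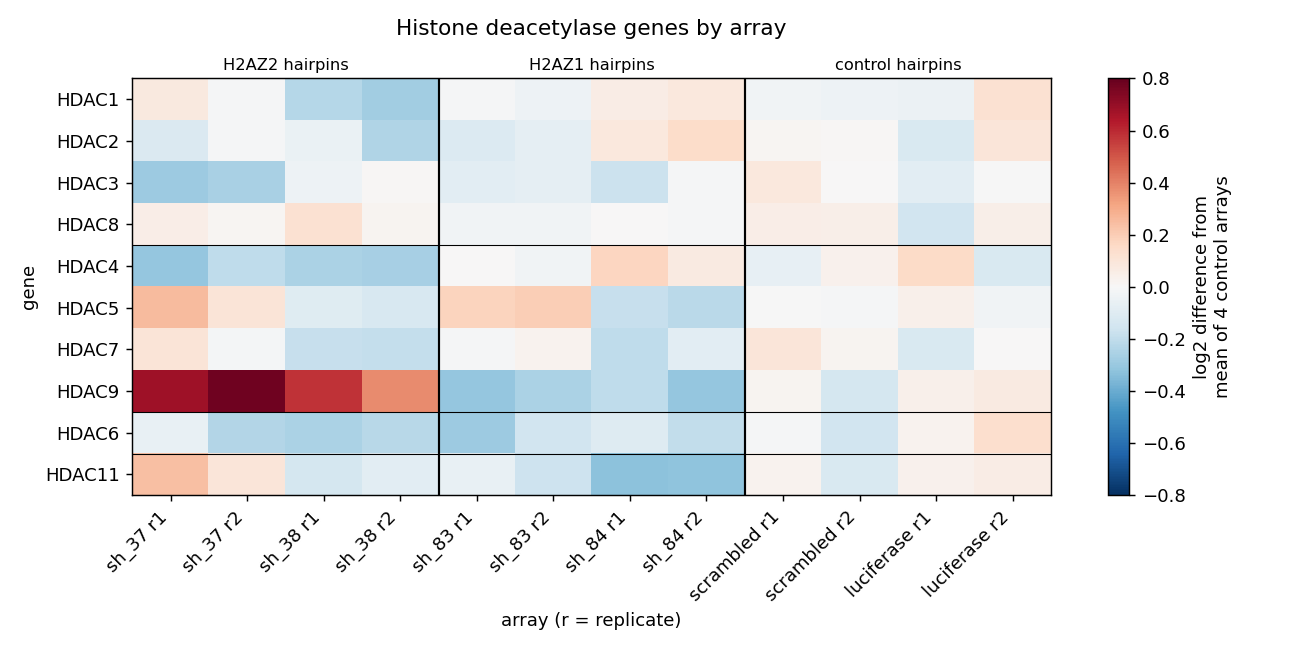
Log2 difference of each of the 10 histone deacetylase genes (rows, by class) from the mean of its 4 control arrays, for each of the 12 arrays (columns; r is the replicate). HDAC9, chosen for its difference between targets, is the row with the deepest colours. It is at 8.51 to 8.91 with H2AZ2 hairpins against a control mean of 8.13. HDAC4 is lower in all 4 arrays with H2AZ2 hairpins.

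Of the other 9 members, none passed the test for H2AZ2 hairpins against control hairpins with limma and adjustment over all genes, where 3.31% of all genes were called. At an unadjusted p under 0.05 there were 2, HDAC4 and HDAC6, beside 17.0% of all genes. The 9 had a median difference of -0.10, against 0.03 over all genes, and their absolute differences ran between 0.03 and 0.26. For H2AZ1 hairpins against control hairpins none of the 9 passed either, and no gene at all did. That comparison joins sh_83 with the arrays labelled sh_84, and H2AZ1 itself, at -1.25 (SE 0.43), did not pass in it. A lack of calls there thus cannot show that a gene was unchanged. Unadjusted, 2 of the 9 were under 0.05, HDAC11 and HDAC6, beside 3.45% of all genes, and the median was -0.02 (-0.03 with sh_83 alone), against 0.00 over all genes.

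**Figure D3:**
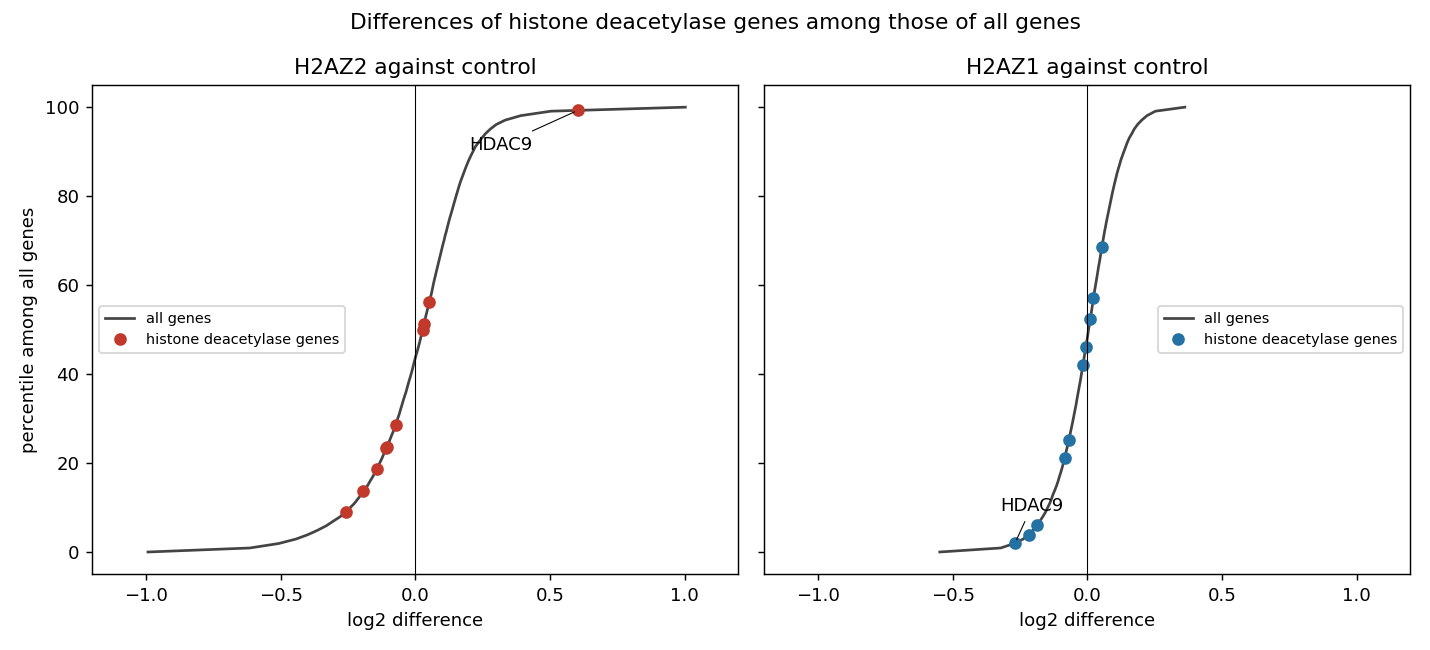
Percentile of each log2 difference among all 18417 genes (line, drawn without the outermost 0.1% at each end), with the 10 histone deacetylase genes as points, for H2AZ2 hairpins against control hairpins (left) and H2AZ1 hairpins against control hairpins (right). HDAC9 is at 0.60 in the left panel and at -0.27 in the right panel, and the other 9 genes lie between -0.26 and 0.05 in the left panel.

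The 4 class I genes gave no call over both H2AZ2 hairpins. HDAC1, a subunit of the NuRD, SIN3 and CoREST complexes, was at 10.45, 10.37, 10.15 and 10.10 in the arrays of sh_37 and sh_38, against 10.33 to 10.50 in the controls. The sh_38 arrays alone lay below the controls. HDAC1 stood at 0.03 with sh_37 (limma adjusted p = 0.857) and at -0.25 with sh_38 (limma adjusted p = 0.0949), and the hairpins differed by 0.28 (95% interval 0.09 to 0.48, limma adjusted p = 0.0905), which did not pass. HDAC2, the close paralog of HDAC1 in the same complexes, was at 10.58, 10.68, 10.64 and 10.45 with the H2AZ2 hairpins, against 10.57 to 10.79 in the controls, and these ranges overlapped. Its difference was -0.10 (95% interval -0.30 to 0.09, limma adjusted p = 0.576).

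HDAC3, the catalytic subunit of the NCOR complex, was the 1 member of the 9 to pass in a single hairpin. It was at 11.01 and 11.04 with sh_37 and at 11.26 and 11.30 with sh_38, against 11.38, 11.30, 11.21 and 11.29 in the controls. The sh_37 arrays lay below every control and the sh_38 arrays lay among them. HDAC3 fell with sh_37, at -0.27 against the controls (SE 0.08, limma adjusted p = 0.0393), where 12.9% of all genes were called and 7.19% were called lower, and stood at -0.01 with sh_38 (limma adjusted p = 0.926). With sh_37 HDAC3 stood at -0.32 against scrambled alone (limma adjusted p = 0.0455). Against luciferase alone it stood at -0.23 (limma adjusted p = 0.148), which did not pass. The difference between the H2AZ2 hairpins, -0.26 (95% interval -0.45 to -0.06, limma adjusted p = 0.133), did not pass, so these hairpins are not shown to differ. The call ended without replicate 1 of scrambled, replicate 2 of luciferase or either replicate of sh_37 or sh_83, with adjusted p from 0.0689 to 0.248. HDAC8, a class I enzyme that deacetylates the cohesin subunit SMC3, was at 9.27 to 9.38 with H2AZ2 hairpins and at 9.23 to 9.26 with H2AZ1 hairpins (9.23 in both sh_83 arrays), against 9.11 to 9.31 in the controls. Its difference with H2AZ2 hairpins was 0.05 (95% interval -0.11 to 0.21, limma adjusted p = 0.740).

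The class IIa genes other than HDAC9 gave no call with any hairpin. HDAC4, which represses MEF2 targets, was at 7.23, 7.34, 7.29 and 7.27 with H2AZ2 hairpins and at 7.54, 7.51, 7.71 and 7.61 with H2AZ1 hairpins, against 7.47, 7.58, 7.69 and 7.42 in the controls. All 4 arrays with H2AZ2 hairpins lay below all controls, whereas those with H2AZ1 hairpins overlapped the controls. The difference from control was -0.26 with H2AZ2 hairpins (SE 0.08, limma adjusted p = 0.122), did not pass, and was nearly the same with each hairpin, at -0.26 with sh_37 and -0.26 with sh_38. HDAC4 was the 1 gene of the 9 whose H2AZ2 arrays did not overlap the controls, where 11.6% of all genes did not overlap and 7.46% lay wholly below. With H2AZ1 hairpins none of the 9 lay apart from the controls, beside 3.33% of all genes.

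HDAC5, a class IIa enzyme known as a repressor of muscle gene programmes, was at 8.91 and 8.76 with sh_37 and at 8.56 and 8.53 with sh_38, and at 8.83 and 8.85 with sh_83, and 8.47 and 8.44 in the sh_84 arrays as labelled, against 8.63 to 8.70 in the controls. The sh_37 and sh_83 arrays lay above the controls, and those of sh_38 and sh_84 lay below them. None of the 4 hairpins passed against control, with differences of 0.18 (limma adjusted p = 0.166) for sh_37, -0.11 (0.404) for sh_38, 0.19 (0.401) for sh_83 and -0.20 (0.430) for sh_84. The hairpins of a target differed by 0.29 for H2AZ2 (limma adjusted p = 0.0800) and by 0.39 for H2AZ1 (limma adjusted p = 0.0617), and neither passed. HDAC7, which is best known from endothelial cells and thymocytes, was at 9.50 and 9.38 with sh_37 and at 9.21 and 9.20 with sh_38, against 9.27 to 9.49 in the controls. Its sh_38 arrays lay below the controls at a difference of -0.19 (limma adjusted p = 0.209).

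**Figure D4:**
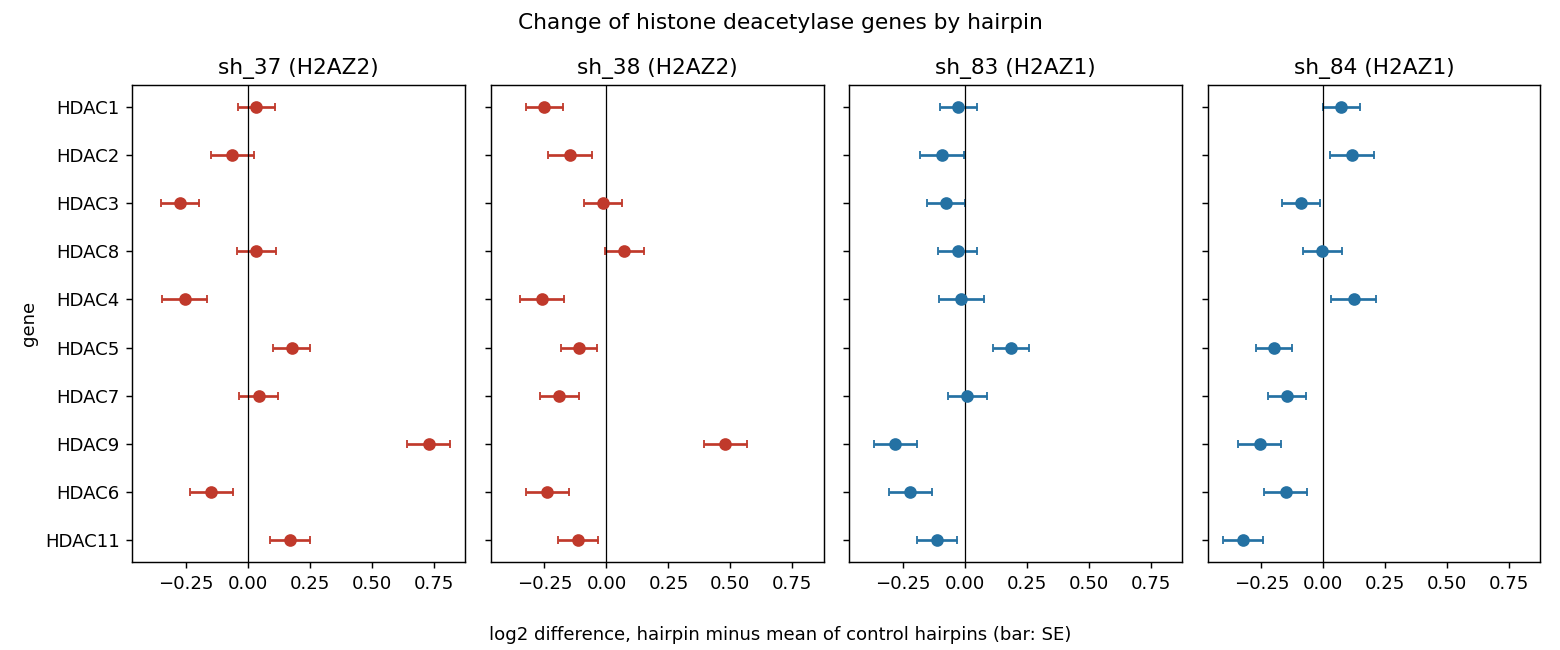
Log2 difference of each of the 10 genes from the mean of the control hairpins, with bars of 1 SE from the fit by hairpin (2 arrays per hairpin), in a panel for each of the 4 hairpins. HDAC9 is at 0.73 and 0.48 with the H2AZ2 hairpins and at -0.28 and -0.26 with the H2AZ1 hairpins, while HDAC5 lies on different sides of 0 for hairpins of the same target, without passing a test.

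HDAC6, a mostly cytoplasmic class IIb enzyme that deacetylates tubulin, was at 7.89, 7.71, 7.69 and 7.72 with H2AZ2 hairpins and at 7.66, 7.80, 7.84 and 7.75 with H2AZ1 hairpins, against 7.94, 7.79, 7.97 and 8.08 in the controls. Both sets of arrays overlapped replicate 2 of scrambled, the lowest control. The difference was -0.19 with H2AZ2 hairpins (SE 0.09, limma adjusted p = 0.273) and -0.19 with H2AZ1 hairpins (SE 0.09, limma adjusted p = 1), and neither passed. With sh_83 alone it was -0.22 (limma adjusted p = 0.409). These comparisons share their controls. HDAC11, the class IV enzyme, known as a remover of fatty acyl groups, was at 7.88, 7.74, 7.50 and 7.56 with H2AZ2 hairpins and at 7.58, 7.48, 7.31 and 7.32 with H2AZ1 hairpins, against 7.67, 7.52, 7.68 and 7.70 in the controls. The arrays labelled sh_84 lay lowest, at a difference of -0.32 (SE 0.08, limma adjusted p = 0.165), and did not pass. HDAC10, which is not among the listed genes, was at 8.64 to 8.80 with H2AZ2 hairpins and at 8.30 to 8.62 with H2AZ1 hairpins (8.60 and 8.62 with sh_83), against 8.35 to 8.74 in the controls, and its difference with H2AZ2 hairpins was 0.14 (limma adjusted p = 0.548).

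With the hairpins sh_38, sh_83 and sh_84 (as labelled), none of the 9 members passed with limma. In these comparisons 4.60%, 0.641% and 0.353% of all genes were called in the same order, and 4, 2 and 2 of the 9 had an unadjusted p under 0.05, beside 20.1%, 10.2% and 8.36% of all genes. With sh_37 it was 1 called and 3 unadjusted, beside 24.4% of all genes. Both arrays lay apart from all 4 controls for 4 of the 9 with sh_37, 5 with sh_38, 1 with sh_83 and 2 with sh_84 as labelled, beside 31.1%, 22.3%, 17.8% and 14.3% of all genes. Between hairpins of a target, 5 of the 9 had an unadjusted p under 0.05 for H2AZ2 and 2 for H2AZ1, beside 17.7% and 11.8% of all genes, and between the controls none did.

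Partner genes of the family were counted in 10 lists that cover 79 entries, of which 71 were measured. Against the controls 4 of the 71 fell with H2AZ2 hairpins, or 5.63% beside 3.31% of all genes called and 2.44% called lower, and none rose. They were TRERF1, a subunit of the MiDAC complex (-0.51, SE 0.13, limma adjusted p = 0.0440), CAMK4, a calcium-dependent kinase that phosphorylates class IIa enzymes (-0.39, SE 0.09, limma adjusted p = 0.0408), SIRT1, a deacetylase of the NAD-dependent sirtuin class (-0.33, SE 0.08, limma adjusted p = 0.0457), and MBD2, the methyl-DNA binding subunit of NuRD (-0.27, SE 0.07, limma adjusted p = 0.0479). All 4 lay close to the threshold, and none of them passed once the arrays were centred on their medians or quantile normalised again. No partner gene passed without replicate 1 of scrambled, either replicate of luciferase, or replicate 2 of sh_37, sh_38, sh_83 or sh_84, and 1 passed without replicate 1 of sh_37 or of sh_84. The median over the 71 was -0.06. With H2AZ1 hairpins none of the 71 passed with limma, as no gene did, H2AZ1 itself included. With sh_83 alone none of the 71 passed either, beside 0.641% of all genes.

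SIRT1 was at 8.63, 8.47, 8.46 and 8.26 with H2AZ2 hairpins, against 8.73 to 8.83 in the controls. CAMK4 was at 8.98, 8.74, 9.14 and 9.03 with H2AZ2 hairpins, against 9.27 to 9.49 in the controls. The H2AZ2 arrays of both genes lay below all controls. In the fit by hairpin 11 of the 71 passed with sh_37 (3 higher, 8 lower), or 15.5% beside 12.9% of all genes, and 5 with sh_38 (1 higher, 4 lower), or 7.04% beside 4.60%.

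The lists by role gave few calls. Of 3 measured NCOR complex genes none passed, the largest value being -0.44 for TBL1X, a WD40 subunit of that complex (SE 0.11, limma adjusted p = 0.0519). None of 12 measured SIN3 genes and 8 measured CoREST genes passed, with ING2 at -0.43 (limma adjusted p = 0.217) and ZMYM2 at 0.29 (limma adjusted p = 0.212) as the largest values. Of 10 measured NuRD genes 1 fell, of 3 MiDAC genes 1, of 7 sirtuins 1 and of 11 measured class IIa kinases 1, the genes given above. Of 7 genes for 14-3-3 proteins none passed, with YWHAG at 0.13 (limma adjusted p = 0.497).

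None of 3 measured MEF2 factors, the partners of class IIa enzymes, passed over both H2AZ2 hairpins. MEF2D was at 9.25 and 9.16 with sh_37 and at 9.51 and 9.44 with sh_38, against 9.50 to 9.69 in the controls, and its difference over both hairpins was -0.25 (SE 0.09, limma adjusted p = 0.161). In the fit by hairpin it fell with sh_37 (-0.38, SE 0.08, limma adjusted p = 0.00849) and stood at -0.11 with sh_38 (limma adjusted p = 0.430), and the difference between the hairpins did not pass (limma adjusted p = 0.123). CHD3, an ATPase of NuRD, was picked after its values were seen. It was at 8.58 and 8.59 with sh_37 and at 7.92 and 7.72 with sh_38, against 8.20 to 8.30 in the controls. CHD3 rose with sh_37 (0.32, SE 0.08, limma adjusted p = 0.0288) and fell with sh_38 (-0.44, SE 0.08, limma adjusted p = 0.0157), and the hairpins differed by 0.76 (SE 0.10, limma adjusted p = 0.00122).

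Genes beside HDAC9 on chromosome 7 did not pass with H2AZ2 hairpins in any of the 7 cases measured. TWIST1, a transcription factor of mesenchymal cells, was at 8.93 to 9.05 with H2AZ2 hairpins, against 9.09 to 9.26 in the controls. These ranges did not overlap, and the difference of -0.15 (SE 0.07, limma adjusted p = 0.317) did not pass. SNX13, on the other side of HDAC9, stood at -0.28 (SE 0.09, limma adjusted p = 0.122). PRPS1L1, FERD3L, POLR1F, TMEM196 and MACC1 stood between -0.10 and 0.15. HDAC9 at 0.60 stood above each of these 7 genes in this comparison. It was chosen for its difference between H2AZ2 and H2AZ1 hairpins, which favours that order, and no test was made.

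The genes with the most similar pattern to HDAC9 over the 12 arrays were sought among 1101 genes with an SD of at least 0.3. Pearson's r over 12 arrays was 0.97 for PCDHB9 and PCDHB16, protocadherins of a cluster on chromosome 5, 0.96 for LRRC15, a membrane protein known from fibroblasts of tumours, 0.96 for FABP6, a bile acid binding protein, and 0.96 for PAX8-AS1, an antisense transcript. Protocadherin beta genes resemble one another in sequence, so the probe sets may not separate them fully. The arrays come in pairs of a hairpin and the genes were picked for their r, so these are descriptions. PCDHB9 stood at 1.03, 0.52, -0.21 and -0.37 relative to the controls with sh_37, sh_38, sh_83 and sh_84. FABP6 stood at 1.06, 0.53, -0.66 and -0.41 in the same order. LRRC15 stood at 0.63, 0.41, -0.27 and -0.24, close to the values of HDAC9.

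**Figure D5:**
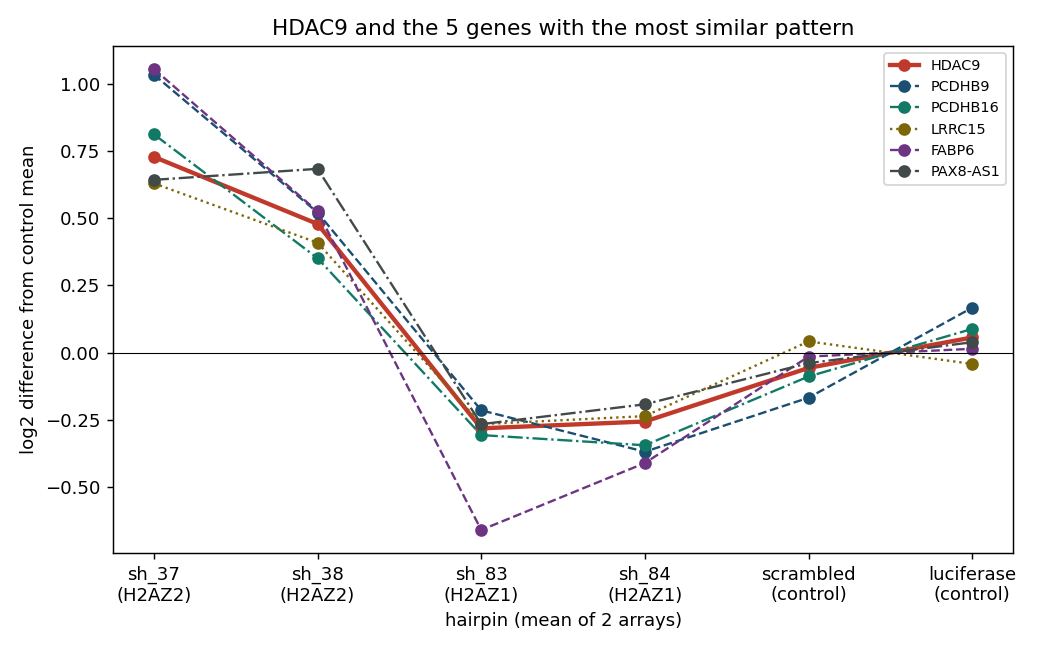
Log2 difference from the control mean for HDAC9 (thick line) and the 5 genes with the highest Pearson's r to it over 12 arrays, by hairpin (means of 2 arrays). HDAC9 is at 0.73, 0.48, -0.28 and -0.26 with sh_37, sh_38, sh_83 and sh_84, and the 5 genes, chosen for this likeness, are likewise above the controls with sh_37 and sh_38 and below them with sh_83 and sh_84.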

How the data were processed

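Log2 expression values per probe set were deposited by the authors. The submitters' processing notes name RMA; its version, the software and any filters are not given here by any source. Values were used as deposited, without further normalization. Of 33297 probe sets, the platform annotation gives 1 symbol to 19460, and the brightest per gene was kept, which gave 18417 genes. Symbols were updated by Entrez ID. limma 3.58.1 in R 4.3.3 was run on all 12 arrays, once with 3 targets and the hairpin as a random block (correlation 0.157) and once with 6 hairpins. Differences were called at a Benjamini-Hochberg adjusted p under 0.05 over all genes. The fit by hairpin has error from array replicates only.

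HDAC9 was left out of counts of calls, and no p is given for it, or for any member, where the choice used the contrast. Members, lists and tests were chosen with earlier results of these data known. Named genes are the 10 members, the targeted genes, the genes beside HDAC9, up to 3 called members of each partner list or its largest value, and the 5 genes most like HDAC9; any other name was picked with its values in view. The fits were tested on simulated data. Alternatives covered the block, arrays and hairpins dropped in turn, averaged probe sets, removal of dim genes, centring, renormalization and the variance model. Promoter windows are from RefSeq. Figures were drawn with matplotlib 3.10.9.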

Additional observations from a re-analysis of the deposited data

Results flagged for a closer look

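HDAC9 stood on opposite sides of the controls with H2AZ2 and H2AZ1 hairpins in every array, a difference of 0.872 between the targets that was not tested because it led to the choice of the gene. HDAC5 stood on opposite sides of the controls between hairpins of a target, with a difference of 0.286 for sh_37 minus sh_38 and of 0.386 for sh_83 minus sh_84. Among all 18417 genes, 322 (1.75%) and 295 (1.60%) did so in the same order. The direct tests gave limma adjusted p of 0.0800 and 0.0617, and adjusted p ranged from 0.0487 to 0.511 and from 0.0366 to 0.382 over the alternatives.

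In 39 groups of 4 arrays (10 members, HDAC10, H2AZ1 and H2AZ2 over 3 targets), a single array stood apart 6 times by the share of the group's range that separates it from its neighbour, where chance flags about 1 in 20 groups of 4 exchangeable arrays. The groups here are pairs of 2 hairpins and the genes share their arrays, so that share is only a rough guide. The shares were 0.903 for HDAC1 in replicate 2 of luciferase, 0.968 for HDAC8 in replicate 1 of luciferase, 0.836 for HDAC11 in replicate 2 of scrambled, 0.854 for HDAC6 and 0.874 for H2AZ1 in replicate 1 of sh_37, and 0.902 for HDAC10 in replicate 1 of sh_84.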

How the results depend on the processing

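HDAC9 kept its direction with H2AZ2 minus H2AZ1 under all 25 alternatives. The difference was 0.819 to 0.942 with 1 array left out, 0.748 without hairpin sh_37 and 0.997 without hairpin sh_38. HDAC9 was chosen on this contrast in these same arrays, so the kept direction is a description and no independent support. Its contrasts between hairpins of a target and between the controls were called under none of 22 alternatives each. The difference of sh_83 minus sh_84 ran from -0.0766 to 0.0257. Members called with sh_37 were 1, 0 to 1 with an array left out, 0 without hairpin scrambled, luciferase or sh_83, and 2 (HDAC3 and HDAC4) after quantile normalization. With sh_38 1 member, HDAC1, passed with an intensity trend and robust prior. No other member was called over both hairpins of a target in any of 25 alternatives. Partner genes called with H2AZ2 hairpins were 4, 0 to 5 with an array left out, 0 after centring, after quantile normalization or without hairpin scrambled, luciferase, sh_83 or sh_84, and 9 without sh_38. Replicate numbers are shared across hairpins, but the replicate differences of 15 pairs of hairpins correlated from -0.469 to 0.677 (median 0.145, over 0.1 in 9), not over 0.1 in every pair, so the pairing was not used; with the replicate block 1 partner gene (TRERF1) and no member was called for H2AZ2. Over all genes 609 were called for H2AZ2, 957 without the hairpin block, 66 to 847 with an array left out, 43 without hairpin scrambled, 14 without luciferase and 1681 without sh_38; quantile normalization moved the rises among calls to 37.3%, from 26.1%. With an array left out, calls were 922 to 2510 for sh_37 (2377 with all), 148 to 1431 for sh_38 (848), 6 to 111 for sh_83 (118) and 2 to 54 for sh_84 (65), lowest without an array of the hairpin itself; the intensity trend gave 284 for sh_83 and 176 for sh_84. Each member has 1 probe set, so values by probe set could not differ. Signal over background is unknown.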
